A study of Homo sapiens with 8 samples.

Results

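Chemokines are small secreted proteins that draw leukocytes along a gradient, and they act through G protein-coupled receptors on the cell surface. The genes described here were 4 chemokine ligands (CCL3, CCL4, CCL5 and CXCL8) and 4 chemokine receptors (CXCR4, CCR1, CCR2 and CCR10), found by gene symbol among the 58219 genes listed for each library. CCL3 and CCL4, also called MIP-1α and MIP-1β, are inflammatory chemokines. MIP-1α made by myeloma cells is known for its part in myeloma bone disease, where it acts on osteoclast precursors through CCR1. CXCR4 is the receptor for the stromal chemokine CXCL12 and holds plasma cells in the bone marrow, and CCR10 is a homing receptor of antibody-secreting cells. The list was drawn up with levels and fold changes from these same 8 libraries already known, so the members were in effect selected on the values given below, which are a description and carry no test.

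RNA was sequenced from H929 and KMS11, established multiple myeloma (MM) cell lines that are both t(4;14)-positive. Each line was grown in RPMI 1640 with serum and exposed for 24 h to 2 µM fluvastatin, a cholesterol-lowering statin, or to ethanol, the solvent control. There were 2 biological replicates in each of the 4 groups, and each line is 1 established culture. Expected counts, the fragments that RSEM assigns to each gene, summed to 26702515 to 41910446 per library, of which 85.2 to 91.4% fell on protein-coding genes. At this depth 3 counts correspond to 0.0716 to 0.112 CPM (counts scaled to library size), and values near this floor cover counting error only. Plasma cell markers were present in both lines, with a summed level of 6160 to 7190 TPM (transcript abundance scaled by length and depth) in H929 ethanol libraries and 6400 to 6890 TPM in KMS11 ethanol libraries. CD38, 1 of the 9 markers, was at 0.04 TPM or below in every KMS11 library. FGFR3, a gene placed under the IGH enhancer by t(4;14), had 8.62 ± 3.06 TPM in H929 ethanol and 88.7 ± 9.14 TPM in KMS11 ethanol libraries (mean ± SD, n = 2).

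In ethanol, the 2 lines carried different sets of these transcripts. H929 cells held mostly CCL3, at 68.3 ± 9.31 TPM (SD, n = 2, as for all means below), followed by CCR1 at 34.2 ± 0.0354 TPM. CCR10 at 1.18 TPM in both libraries and CXCR4 at 1.1 ± 0.191 TPM did not differ beyond their spread, and CCL5 at 0.695 ± 0.148 TPM and CCL4 at 0.32 ± 0.0283 TPM came next. KMS11 cells held mostly CXCR4, at 18.9 ± 2.93 TPM, and CCR1, at 11.2 ± 0.318 TPM. CCL5 at 2.42 ± 0.318 TPM and CCL3 at 2.32 ± 0.615 TPM followed and did not differ beyond their spread, and CCR10 stood at 0.38 ± 0.099 TPM. CXCL8 and CCR2 were at or below 0.06 TPM in all 8 libraries.

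**Figure D1:**
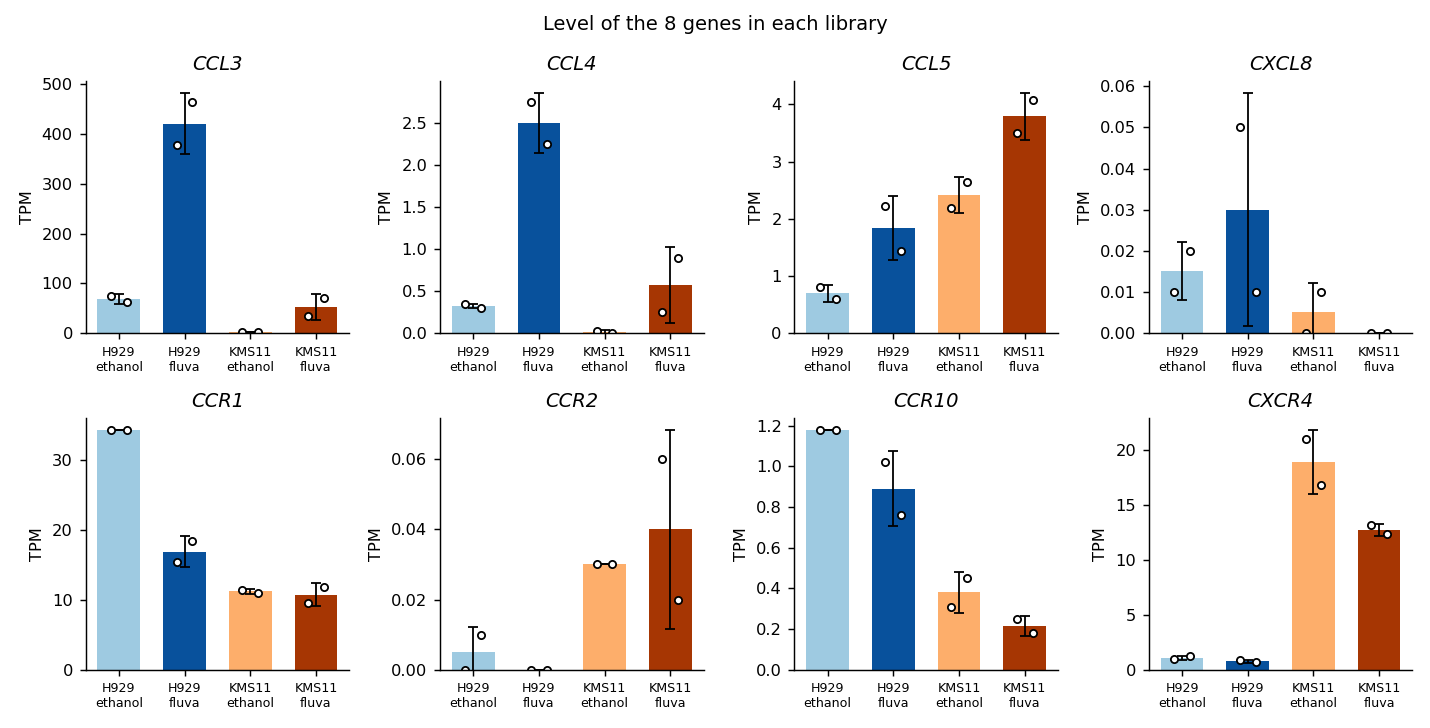
Level of each of the 8 genes in TPM (vertical axes, each with its own scale starting at 0) in H929 and KMS11 libraries after ethanol or fluvastatin (fluva). Bars are means of 2 libraries, error bars are SD and circles are single libraries. CCL3 reached 421 TPM in H929 fluvastatin and 52.6 TPM in KMS11 fluvastatin libraries, CXCR4 was highest in KMS11 and CCR1 in H929 ethanol libraries, and CXCL8 and CCR2 rested on 6 counts or fewer in each group.

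Of the 8 genes, 6 had enough counts to be tested by edgeR's quasi-likelihood test, among 13129 protein-coding genes, and CXCL8 and CCR2 did not. A gene is called here where its Benjamini-Hochberg adjusted p over all genes tested was under 0.05. The counts of called members are read beside the share of all genes called the same way, and nothing is inferred from them. Between the ethanol groups, CXCR4 and CCL5 were called higher in KMS11, against 35.6% of all genes tested, and CCL3, CCL4, CCR1 and CCR10 were called lower, against 36.4% of all genes. Across both lines, 3 members were called higher after fluvastatin (CCL3, CCL4 and CCL5), against 6.5% of all genes, and no member was called lower, against 3.93%. Within H929, the same 3 ligands were called higher, against 22.7% of all genes, and CCR1 was called lower, against 19.3%. Within KMS11, CCL3 and CCL4 were called higher, against 2.58% of all genes, and no member lower, against 0.533%. For the difference between the responses, KMS11 minus H929, CCL3 and CCR1 were called in the positive direction, against 11.7% of all genes, and none in the negative direction, against 11.5%. DESeq2 also called CXCR4 lower across both lines, and a member that was not called may still differ.

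CCL3 (ENSG00000277632.1) lies on the minus strand at chr17:36088256-36090169 of GRCh38, within the CC chemokine cluster, 13.7 kb from CCL4 and 207.5 kb from CCL5. Its level was 74.91 and 61.74 TPM in the H929 ethanol libraries and 376.97 and 464.26 TPM in the H929 fluvastatin libraries. In KMS11 it was 1.88 and 2.75 TPM in ethanol and 34.1 and 71.08 TPM in fluvastatin. The treated libraries of each line lay above its ethanol libraries without overlap, and the ethanol level of H929 lay near the treated level of KMS11, with the second KMS11 fluvastatin library between the 2 H929 ethanol libraries. These levels rested on 2226 counts or more in every H929 library, on 73 and 110.38 expected counts in KMS11 ethanol and on 1123.73 and 2828.57 expected counts in KMS11 fluvastatin.

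On the log2 scale CCL3 was higher after fluvastatin by 2.59 ± 0.26 (SE) in H929, which is 6.03-fold, and by 4.55 ± 0.32 in KMS11, which is 23.4-fold. The difference between the 2 responses was 1.95 ± 0.39, with a 95% interval of 0.86 to 3.05. Without KMS11 ethanol replicate 1 this difference was 1.67 and was no longer called, and on log2(TPM + 1) with limma it was 1.33 and not called. In ethanol, CCL3 was lower in KMS11 than in H929 by 40.3-fold. RNA of the whole culture was measured, so more CCL3 per cell and more cells making CCL3 cannot be told apart, and this holds for each gene below.

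**Figure D2:**
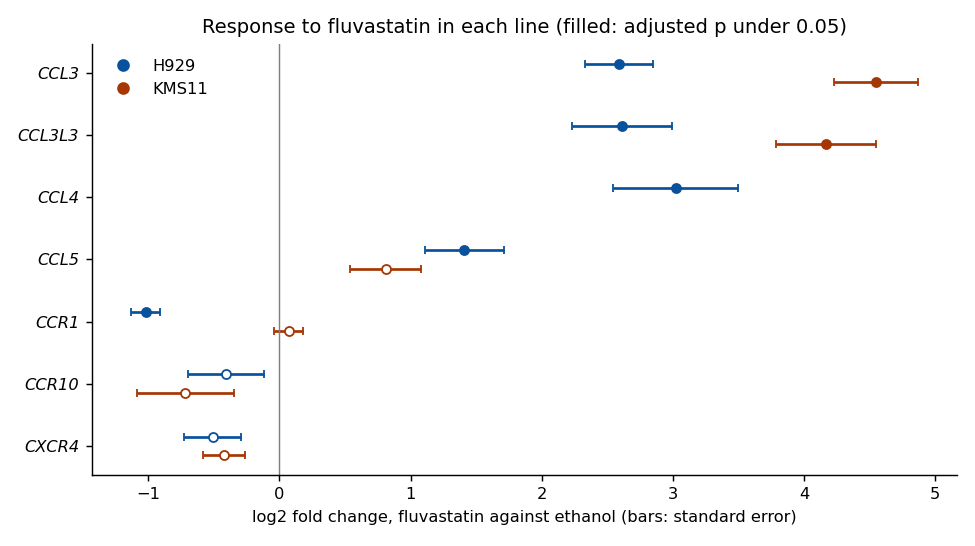
Log2 fold change of fluvastatin against ethanol (horizontal axis) within H929 (blue) and KMS11 (brown) for 6 members and for CCL3L3, with SE as bars. Filled points have an adjusted p under 0.05. CCL3 and CCL3L3 lie above 2.5 in both lines, CCR1 lies at -1.02 in H929 and 0.07 in KMS11, and the KMS11 point of CCL4 is left out because it rests on 1 count in ethanol.

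CCL3 has a near-identical copy in the annotation, CCL3L3 (ENSG00000276085.1, chr17:36194869-36196758, minus strand), 104.7 kb away. Their coding sequences, read from GENCODE release 44 and GRCh38, are printed because read sharing between copies bears on the CCL3 values. They differ at 8 positions and by 3 inserted bases, with 96.1% identity, and capitals mark the differing bases.
CCL3 (279 bases with stop): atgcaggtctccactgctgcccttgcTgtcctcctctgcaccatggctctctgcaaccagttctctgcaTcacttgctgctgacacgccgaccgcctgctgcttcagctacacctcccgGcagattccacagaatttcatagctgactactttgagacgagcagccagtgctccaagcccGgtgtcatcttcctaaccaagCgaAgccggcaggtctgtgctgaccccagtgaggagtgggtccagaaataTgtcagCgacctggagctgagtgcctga
CCL3L3 (282 bases with stop): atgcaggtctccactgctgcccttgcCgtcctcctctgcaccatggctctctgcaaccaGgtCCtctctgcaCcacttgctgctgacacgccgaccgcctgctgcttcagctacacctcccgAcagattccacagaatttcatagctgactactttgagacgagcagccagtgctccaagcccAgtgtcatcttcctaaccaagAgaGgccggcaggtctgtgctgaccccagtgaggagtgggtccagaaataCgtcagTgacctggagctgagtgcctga
Of the 1568 windows of 75 bases, the read length, in CCL3 transcripts, 9 (0.574%) were identical to a window of CCL3L3 transcripts. The remaining windows differ from CCL3L3 by at least 1 base in the reference, and the copies carried by each line were not sequenced here. CCL3L1 and CCL4L1 were not analysed here.

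CCL3L3 followed CCL3 in both lines. It had 32 and 21 counts in H929 ethanol, 115 and 169.1 in H929 fluvastatin, 14 and 27.62 in KMS11 ethanol and 209.27 and 491.43 in KMS11 fluvastatin. The treated libraries lay above the ethanol libraries in both lines. CCL3L3 was higher after fluvastatin by 2.61 ± 0.38 on the log2 scale in H929 and by 4.17 ± 0.38 in KMS11, and both were called. The difference between the lines was 1.57 ± 0.55 and was not called. Between the ethanol groups CCL3L3 differed by -0.78 ± 0.45, which was not called, beside -5.33 ± 0.32 for CCL3. Fragments that fit both copies are divided between them, so the CCL3L3 values are not independent of those of the selected member. They are a description and carry no test, as for CCL3.

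The copy took a different share of the paired counts in each line. In the 4 H929 libraries CCL3L3 held 0.922 to 1.03% of the CCL3 and CCL3L3 counts together, with 95% Wilson intervals that all lay between 0.612 and 1.42%. In KMS11 ethanol the share was 16.1% (9.83 to 25.2%) and 20% (14.4 to 27.8%), and in KMS11 fluvastatin it was 15.7% (13.8 to 17.7%) and 14.8% (13.6 to 16%). The intervals of the 2 lines did not overlap, while ethanol and fluvastatin libraries of a line did overlap, and these intervals cover counting error only. With the counts of both copies added before the fit, no member call changed.

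**Figure D3:**
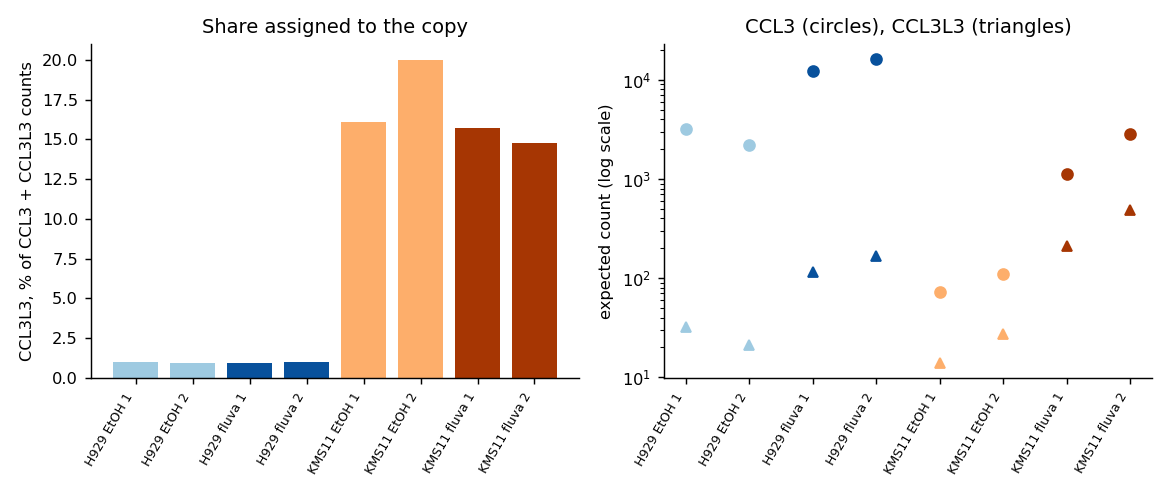
Left, the share of CCL3L3 in the summed CCL3 and CCL3L3 counts of each library, in percent. Right, expected counts of CCL3 (circles) and CCL3L3 (triangles) on a log scale, with ethanol (EtOH) libraries in light and fluvastatin (fluva) libraries in dark colours. The share lies between 0.922 and 1.03% in H929 and between 14.8 and 20% in KMS11, in both treatments.

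CCL3 also overlaps an antisense lncRNA, CCL3-AS1, whose exons share bases with it. CCL3-AS1 had 15 and 16 counts in H929 ethanol, 46 and 38 in H929 fluvastatin and 0 in all 4 KMS11 libraries. The libraries were made with a stranded kit, but the strand setting of the counting is not given in the sources used here, so reads of CCL3 and its antisense partner may not be fully separated. These antisense counts were far below those of CCL3 in every library.

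The promoters of CCL3 and CCL3L3 are shown because both copies were higher after fluvastatin, and that of CXCL8 because CXCL8 stayed near the floor. Each covers 250 bases before and 50 bases after the annotated start (RefSeq, GRCh38.p14, 5′ to 3′ on the gene's strand). Capitals mark matches on either strand to the AP-1 motif TGANTCA, the CRE TGACGTCA or the kappa B motif GGNNNTTCC, which do not overlap each other in these sequences.
CCL3 (chr17:36090094-36090393, minus strand): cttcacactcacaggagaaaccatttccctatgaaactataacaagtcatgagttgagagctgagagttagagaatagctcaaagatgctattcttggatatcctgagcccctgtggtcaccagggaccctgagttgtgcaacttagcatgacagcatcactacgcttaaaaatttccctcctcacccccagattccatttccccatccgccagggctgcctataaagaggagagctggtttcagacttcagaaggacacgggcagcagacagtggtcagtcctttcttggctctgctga
CCL3L3 (chr17:36196709-36197008, minus strand): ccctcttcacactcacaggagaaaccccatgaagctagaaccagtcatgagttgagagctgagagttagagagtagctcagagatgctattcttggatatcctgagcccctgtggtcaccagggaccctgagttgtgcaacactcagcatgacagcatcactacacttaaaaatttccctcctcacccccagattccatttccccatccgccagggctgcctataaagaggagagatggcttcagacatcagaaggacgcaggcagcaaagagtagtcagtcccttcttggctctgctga
CXCL8 (chr4:73740319-73740618, plus strand): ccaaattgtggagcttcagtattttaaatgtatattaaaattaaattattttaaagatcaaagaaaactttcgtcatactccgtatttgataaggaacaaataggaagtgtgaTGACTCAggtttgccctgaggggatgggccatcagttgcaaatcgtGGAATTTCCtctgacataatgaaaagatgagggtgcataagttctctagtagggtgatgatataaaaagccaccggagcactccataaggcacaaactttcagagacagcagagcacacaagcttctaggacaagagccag
Neither the CCL3 nor the CCL3L3 window held any of the 3 motifs. The CXCL8 window held an AP-1 match that begins 137 bases before the start and a kappa B match that begins 91 bases before it. The first CXCR4 promoter held a kappa B match 230 bases before the start, the CCR2 promoter an AP-1 match 212 bases before it, and the CCR1 promoter none. Of 35116 promoters of this length, 7.71% held the AP-1 motif, 1.85% the CRE and 20.1% the kappa B motif.

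CCL4 (ENSG00000275302.1, chr17:36103827-36105621, plus strand) was measured on few counts. It had 16 and 9 counts in H929 ethanol and 91 and 86.86 expected counts in H929 fluvastatin. KMS11 had 1 and 0 counts in ethanol and 8 and 34 in fluvastatin. The treated libraries lay above the ethanol libraries in both lines, and the 2 KMS11 fluvastatin libraries differed from each other.

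In H929 the log2 fold change of CCL4 was 3.02 ± 0.48, and the ratio of summed counts, scaled to library size, was 8.13 (95% counting interval 5.33 to 12.9). In KMS11, 42 counts against 1 gave a ratio of 47.6 with a counting interval of 8.1 to 1930. The KMS11 call rested on the ethanol libraries, and it was lost with ethanol replicate 1 left out (fitted log2 fold change 7.17) and with ethanol replicate 2 left out (4.32), as it was with DESeq2 (5.46). The difference between the responses had an interval of -1.3 to 5.54 on the log2 scale and was not called. In ethanol, the KMS11 to H929 ratio was 0.029 (0.000707 to 0.177). The TPM of CCL4 also carries an isoform estimate made from these few reads.

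The copy of CCL4, CCL4L2 (ENSG00000276070.4, chr17:36210924-36212878, plus strand), lies 105.3 kb away. Its coding sequence, compared in the frame most like that of CCL4, differed from it at 7 of 279 bases. Of 1943 windows of 75 bases in CCL4 transcripts, 99 (5.1%) were shared with CCL4L2. CCL4L2 had 1 and 2 counts in H929 ethanol, 11 and 8.14 in H929 fluvastatin, 0 and 0 in KMS11 ethanol and 9 and 19 in KMS11 fluvastatin. It was called higher in H929, with a count ratio of 7.24 (2.13 to 38.2). It was also called higher in KMS11, where 28 counts against 0 were at least 10.6-fold higher, taking 3 counts over the group as the floor. CCL4L2 is a copy of a selected member and passed the filter on low counts only through fluvastatin libraries, so these 2 calls are a description. Both calls were lost with DESeq2. The H929 call did not survive leaving out ethanol replicate 1 (log2 fold change 2.26), ethanol replicate 2 (3.41) or fluvastatin replicate 1 (2.46) of that line, and the KMS11 call did not survive leaving out either of its ethanol libraries (fitted values 6.62 and 6.63).

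CCL5 (ENSG00000271503.5, chr17:35871491-35880793, minus strand), or RANTES, attracts T cells and monocytes through receptors that include CCR1. Its counts were 55 and 35 in H929 ethanol, 126 and 81 in H929 fluvastatin, 129 and 164 in KMS11 ethanol and 188 and 266 in KMS11 fluvastatin. In TPM these were 0.8 and 0.59, 2.23 and 1.44, 2.19 and 2.64, and 3.5 and 4.08. The groups of each line did not overlap in TPM, and all KMS11 libraries but the first ethanol one lay above all H929 libraries.

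The log2 fold change of CCL5 was 1.41 ± 0.3 in H929, which was called, and 0.81 ± 0.27 in KMS11, which was not, though it was called there with no filter on low counts (0.8) and with the replicate number as a block (0.81). The difference between the lines was -0.61 with an interval of -1.72 to 0.51, so the 2 responses were not separated. Across both lines CCL5 was 1.09 ± 0.24 higher and called. That call needed both H929 ethanol libraries (1.09 with replicate 1 left out, 0.96 with replicate 2 left out), fluvastatin replicate 1 of H929 (0.87 with it left out) and ethanol replicate 1 of KMS11 (1.03 with it left out). Of the windows of CCL5 transcripts, 8.8% occurred in transcripts of other genes at many places in the genome. CXCL8, CXCR4, CCR1, CCR2 and CCR10 shared no window of 75 bases with another gene.

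CXCL8 (ENSG00000169429.10, chr4:73740519-73743716, plus strand), or interleukin 8, attracts neutrophils. It had 1 and 2 counts in H929 ethanol, 2 and 1 in H929 fluvastatin, 0 and 1 in KMS11 ethanol and 0 and 0 in KMS11 fluvastatin. A change in CXCL8 was not detectable at this depth. In H929, 3 counts stood against 3, a ratio of 1.14 with a counting interval of 0.153 to 8.53.

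CCR1 (ENSG00000163823.3, chr3:46201711-46208313, minus strand) is a receptor of CCL3 and CCL5 and was the most abundant receptor transcript in H929. Its level was 34.19 and 34.24 TPM in H929 ethanol and 15.31 and 18.4 TPM in H929 fluvastatin. In KMS11 it was 11.42 and 10.97 TPM in ethanol and 9.57 and 11.85 TPM in fluvastatin. In H929 the groups were far apart, and in KMS11 they overlapped. Its counts ranged from 1171 to 5447 per library.

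On the log2 scale CCR1 was lower by -1.02 ± 0.11 in H929 and differed by 0.07 ± 0.11 in KMS11. The difference between the responses was 1.1 ± 0.15, with an interval of 0.68 to 1.51. In 19 alternative fits of these same libraries its value ran from 0.92 to 1.22, which is a description. In ethanol CCR1 was lower in KMS11 by 4.39-fold. CCR1 lies opposite CCR3 on the other strand with no exon in common, and CCR3 had 4 to 17 counts.

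CXCR4 (ENSG00000121966.6, chr2:136114349-136119177, minus strand) stood at 0.97 and 1.24 TPM in H929 ethanol and 0.88 and 0.66 TPM in H929 fluvastatin. KMS11 had 21 and 16.85 TPM in ethanol and 13.14 and 12.34 TPM in fluvastatin. The treated libraries lay below the ethanol libraries in each line, and every KMS11 library lay far above every H929 library. The line difference in ethanol was 3.57 ± 0.19 on the log2 scale, or 11.9-fold. The treatment differences were -0.51 ± 0.22 in H929 and -0.42 ± 0.16 in KMS11, and neither was called. Across both lines the difference was -0.46 ± 0.14, not called by edgeR and called by DESeq2 at -0.47. The interval of the difference between the lines, -0.66 to 0.84, was wide enough to hold unequal responses.

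CCR10 (ENSG00000184451.5, chr17:42678889-42683917, minus strand) is the receptor of CCL27 and CCL28. It had 118 and 102 counts in H929 ethanol, 80 and 64 in H929 fluvastatin, 27 and 41 in KMS11 ethanol and 19 and 17 in KMS11 fluvastatin. In TPM the H929 libraries stood at 1.18 and 1.18 in ethanol and 1.02 and 0.76 in fluvastatin, and the KMS11 libraries at 0.31 and 0.45 in ethanol and 0.25 and 0.18 in fluvastatin. Treated values lay below the ethanol values, and the fitted differences of -0.41 ± 0.29 in H929 and -0.72 ± 0.37 in KMS11 were not called. In ethanol CCR10 was 4.43-fold lower in KMS11. With a trend on GC content removed, the KMS11 difference was -1.37 and called. Exons of CCR10 overlap those of CNTNAP1 on the opposite strand, which had 170 to 311 counts in H929 and 20 to 44 in KMS11, so without a stated strand setting reads of this pair may not be separated.

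CCR2 (ENSG00000121807.5, chr3:46353864-46360940, plus strand), the receptor of CCL2 on monocytes, lies 145.6 kb from CCR1. It had 0, 1, 0 and 0 counts in the H929 libraries and 3, 3, 2 and 1 in the KMS11 libraries, with the ethanol libraries first. These counts were at or near the floor, and in KMS11 the ratio of 3 counts to 6 was 0.567 with an interval of 0.0918 to 2.66. CCL2 was not among the chemokines tested.

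Most other genes of the chemokine family were at or near 0 counts. Of 61 other chemokines and receptors matched in the annotation, 28 had no count in any library, 50 had under 10 counts in every library and 9 were tested. Within H929, 2 rose and 2 fell, and within KMS11, 2 rose and 1 fell, the rises being those of CCL3L3 and CCL4L2. These counts are 22.2% higher and 22.2% lower of the 9 in H929, beside 22.7% and 19.3% of all genes, and 22.2% and 11.1% in KMS11, beside 2.58% and 0.533%. Both genes that rose are copies of selected members, and CCL4L2 was tested only through its fluvastatin libraries. The shares higher are thus a description and not a result about the family. For the difference between the lines edgeR called 0 of the 9 and DESeq2 called 1, which does not show that their responses were equal. The H929 count of 4 was lower with replicate 2 of either H929 group left out, as was the count over all genes. The KMS11 count of 3 was lower with either KMS11 ethanol library left out, again with the count over all genes. The difference count was higher without fluvastatin replicate 1 of H929 or of KMS11, where the count over all genes was lower. The median log2 fold change of the 9 was 0.73 in H929 and -0.27 in KMS11, beside 0.02 and 0 over all genes tested, and 1.03 in H929 without the 3 genes at or under the floor in both groups.

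CXCL16, a transmembrane chemokine that binds CXCR6, fell in H929 by 1.48 ± 0.37 on the log2 scale (edgeR adjusted p = 0.00953). Its counts there were 51 and 48 in ethanol and 17 and 14 in fluvastatin. In KMS11 it had 9 and 10 counts in ethanol and 0 and 1 in fluvastatin, a ratio of 0.0597 (0.00144 to 0.376). It passed there at an edgeR adjusted p of 0.0431 and lost the call when any library other than KMS11 fluvastatin replicate 2 was left out, with fitted values of -3.87 to -3.1. The H929 call was lost when replicate 2 of either H929 group was left out (-1.4 without the ethanol library, -1.29 without the fluvastatin library). DESeq2 called CXCL16 in neither line (-1.47 and -4.1), and limma on log2(TPM + 1) and log2(TPM + 0.1) did not call it in KMS11 (-0.19 and -1.21).

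CXCR3, the receptor of CXCL9, CXCL10 and CXCL11, was a transcript of H929. Its counts were 294 and 293 in H929 ethanol, 160 and 171 in H929 fluvastatin and 12 or 13 in each KMS11 library. It fell in H929 by 0.64 ± 0.19 on the log2 scale (edgeR adjusted p = 0.0227), and this call was lost when ethanol replicate 2 (-0.52), fluvastatin replicate 1 (-0.66) or fluvastatin replicate 2 (-0.63) of H929 was left out, with DESeq2 (-0.63) and with the GC trend removed (-0.4). In ethanol it was lower in KMS11 by 32.1-fold (edgeR adjusted p = 1.13e-07).

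Ligands of CXCR3 and CXCR4 were transcripts of KMS11. CXCL10 had 620 and 416 counts in KMS11 ethanol, 193 and 257 in KMS11 fluvastatin and at most 1 in an H929 library, and in ethanol it was at least 251-fold higher in KMS11. Its log2 difference after fluvastatin was -1.01 ± 0.23 in KMS11 (edgeR adjusted p = 0.0534) and did not pass. CXCL12 had 113 and 84 counts in KMS11 ethanol, 40 and 71 in KMS11 fluvastatin and 0 in H929, and was at least 47.7-fold higher in KMS11 in ethanol. Its difference after fluvastatin in KMS11 was -0.66 ± 0.31 (edgeR adjusted p = 0.252). CX3CR1, the fractalkine receptor, was higher in KMS11 in ethanol by 3.25 ± 0.49 on the log2 scale (edgeR adjusted p = 0.000192), on 58 counts or fewer.

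Chemokine receptors signal through heterotrimeric G proteins, with arrestins, receptor kinases and RGS proteins as brakes and exchange factors that load small GTPases. Of 49 genes of this signalling, 44 were tested. The list was drawn up with earlier results of these data known, so its shares and medians are a description. Within H929, 21 rose (47.7%) and 4 fell (9.09%), beside 22.7% and 19.3% of all genes, and the median log2 fold change was 0.48 beside 0.02 over all genes. PREX1, an exchange factor for RAC, rose by 1.72 ± 0.17 (edgeR adjusted p = 5.28e-05). JAK2, a tyrosine kinase, rose by 1.45 ± 0.12 (edgeR adjusted p = 2.1e-05), RHOA, a GTPase of cell movement that needs geranylgeranylation, by 1.39 ± 0.11 (1.79e-05 by the same test) and VAV1, another exchange factor, by 0.95 ± 0.14 (0.000443). ARRB2, an arrestin that ends G protein signalling of the receptors, fell by 1.09 ± 0.16 (edgeR adjusted p = 0.000443).

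Within KMS11, 3 of the 44 rose (6.82%, beside 2.58% of all genes) and 41 did not pass, with a median of 0.12 beside 0. These were GNB2, a G protein beta subunit, at 0.96 ± 0.21 (edgeR adjusted p = 0.037), VAV3 at 0.69 ± 0.12 (0.0164) and RHOA at 0.52 ± 0.11 (0.0365). The RHOA call was lost under median-of-ratios scaling (0.48), with all annotated genes (0.5) and on both TPM scales (0.37), and the calls of GNB2 and VAV3 on both TPM scales. The count of 3 was lower with either KMS11 ethanol library or KMS11 fluvastatin replicate 1 left out. It was higher with KMS11 fluvastatin replicate 2 left out. The count over all genes moved the same way in each case. For the difference between the lines, 3 genes were called positive (6.82%) and 10 negative (22.7%), beside 11.7% and 11.5% of all genes, among them JAK2 at -1.33 and RHOA at -0.87. These 13 calls became fewer when either KMS11 ethanol library or fluvastatin replicate 2 of H929 was left out, as did the calls over all genes.

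Inflammatory chemokine genes are read by AP-1 and NF-κB factors, and their mRNAs are cleared by decay factors such as ZFP36 proteins. Of 38 such regulators, 36 were tested, of which 16 rose (44.4%) and 3 fell (8.33%) in H929, beside 22.7% and 19.3% of all genes. In KMS11, 9 rose (25%) and 3 fell (8.33%), beside 2.58% and 0.533% of all genes. The median log2 fold change was 0.46 in H929 and 0.35 in KMS11, beside 0.02 and 0 over all genes. This list was drawn up with earlier results of these data known, so its shares and medians are a description.

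JUN, an AP-1 subunit, had 0.79 and 0.56 TPM in H929 ethanol, 8.17 and 8.82 TPM in H929 fluvastatin, 1.05 and 0.73 TPM in KMS11 ethanol and 6.64 and 6.74 TPM in KMS11 fluvastatin. It rose by 3.65 ± 0.19 on the log2 scale in H929 (edgeR adjusted p = 1.94e-06) and by 3.06 ± 0.18 in KMS11 (edgeR adjusted p = 2.44e-05). ATF3, a stress-induced factor of the same superfamily, rose by 2.24 ± 0.14 in H929 and 2.34 ± 0.14 in KMS11 (edgeR adjusted p = 4.54e-06 and 2.44e-05). KLF2, a zinc finger factor known to restrain inflammatory genes, rose by 2.56 ± 0.19 in H929 and 2.9 ± 0.31 in KMS11 (edgeR adjusted p = 1.26e-05 and 0.000895). JUN, ATF3 and KLF2 kept these calls within each line under all alternatives but 1, limma on log2(TPM + 1), where KLF2 in KMS11 was at 0.65 and lost its call.

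KLF6 rose by 2.41 ± 0.12 in H929 and 1.33 ± 0.12 in KMS11, a difference of -1.08 ± 0.17 (edgeR adjusted p = 0.00219). ZFP36L1, which binds AU-rich mRNAs for decay, rose in H929 by 2.51 ± 0.34 (edgeR adjusted p = 0.00033) and stood at 0.93 ± 0.28 in KMS11 (0.108). In KMS11, TRAF1, an adaptor of TNF receptors, rose by 2.34 ± 0.24 (edgeR adjusted p = 0.000666) and JUND, another AP-1 subunit, by 2.08 ± 0.2 (0.000482), and in H929 they rose by 1.63 ± 0.27 and 1.27 ± 0.2. Of the 5 NF-κB subunit genes, RELB rose in H929 by 1.15 ± 0.21 (edgeR adjusted p = 0.00185) and stood at 0.12 ± 0.19 in KMS11, and REL rose in KMS11 by 0.55 ± 0.1 (edgeR adjusted p = 0.0224) and stood at -0.05 ± 0.1 in H929. The REL call in KMS11 was lost with either KMS11 ethanol library left out (0.62 and 0.42) and on both TPM scales (0.39 and 0.48). NFKB1 was at 0.09 ± 0.09 in both lines, NFKB2 at 0.45 ± 0.24 in H929 and 0.37 ± 0.23 in KMS11, and RELA at -0.01 ± 0.13 in H929 and 0.53 ± 0.13 in KMS11, none of which passed. The subunits were named after their values were seen. The KMS11 count of 12 was lower without either KMS11 ethanol library or KMS11 fluvastatin replicate 1, as was the count over all genes. For the difference between the lines 10 of the 36 were called, 2 positive (5.56%) and 8 negative (22.2%), beside 11.7% and 11.5% of all genes. That count of 10 was lower without either KMS11 ethanol library or H929 fluvastatin replicate 2, and so was the count over all genes.

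**Figure D4:**
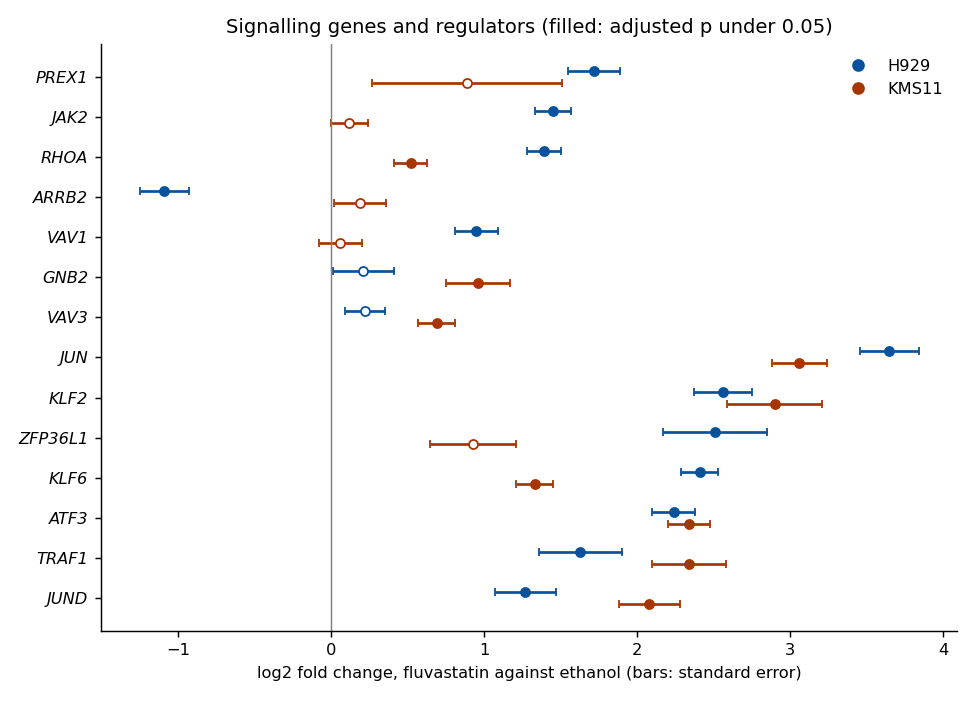
Log2 fold change of fluvastatin against ethanol (horizontal axis, bars SE) in H929 (blue) and KMS11 (brown) for the named receptor signalling genes, from PREX1 to VAV3, and the named regulators of chemokine genes, from JUN to JUND. Filled points have an adjusted p under 0.05. JUN, KLF2 and ATF3 lie above 2 in both lines, while JAK2 lies at 1.45 in H929 and 0.12 in KMS11.

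Chemokines are also made by T, NK and myeloid cells, so markers of these cells were read beside the ligands. In H929, the summed level of 6 T cell markers was 1.63 to 1.71 TPM in ethanol and 3.93 to 4.85 TPM in fluvastatin, mostly from CD3E, and that of 6 monocyte or macrophage markers was 1.9 to 2.3 TPM in ethanol and 7.88 to 8.35 TPM in fluvastatin, nearly all from CD68. CD3E and CD68 rose in H929, by 1.13 ± 0.23 and 1.96 ± 0.26 on the log2 scale (edgeR adjusted p = 0.00309 and 0.000449). CD3G went from a mean of 0.142 CPM in H929 ethanol to 2.14 CPM in H929 fluvastatin and had 0 CPM in KMS11. It passed the filter on low counts only through the H929 fluvastatin libraries, so no p is given for it. The other T cell markers were low in H929. CD8A had 0 counts in both groups, CD2 went from 3 counts to 0 and CD3D from 0 to 2. TRAC, which was not tested, went from 0.111 to 0.943 CPM. LYZ had 0 counts in H929 ethanol and 7 in H929 fluvastatin, at least 2.67-fold higher with 3 counts over the group as the floor, and ITGAM had at most 2 counts in an H929 library. CD14, CSF1R and C1QA, the other 3 of the 6 myeloid markers, had 0 counts in all 8 libraries. In KMS11 these sums were 1.25 to 1.57 and 0.18 to 0.54 TPM in ethanol, and 1.01 to 1.1 and 0.54 to 0.57 TPM in fluvastatin. The sum of 5 NK cell markers was 14.4 to 17.9 TPM in ethanol and 15.2 to 19.3 TPM in fluvastatin in H929, nearly all from NCAM1, and at most 0.31 TPM in KMS11. Among these, PRF1 had 2 counts in H929 ethanol and 69 in H929 fluvastatin, a ratio of 39.4 with a counting interval of 10.5 to 332. PRF1 passed the filter on low counts only through the H929 fluvastatin libraries, so no p is given for it. NKG7 had 0 counts in H929 ethanol and 15 in H929 fluvastatin, at least 5.71-fold higher. NCAM1 stood at 0.06 ± 0.14 in H929 and was not called. GNLY (0.017 and 0.108 CPM in ethanol and fluvastatin) and KLRD1 (0 and 3 counts) stayed near the floor there. Neutrophil markers summed to at most 0.28 TPM and stromal markers to at most 0.16 TPM. The 9 plasma cell markers, mostly JCHAIN, summed to 6970 to 7970 TPM in H929 fluvastatin, overlapping the ethanol libraries (6160 to 7190 TPM), and to 4580 to 5700 TPM in KMS11 fluvastatin, below the ethanol libraries. The 9 markers did not move together in H929. SDC1 fell by 1.08 ± 0.17, SLAMF7 by 0.98 ± 0.13 and MZB1 by 1.02 ± 0.25 on the log2 scale (edgeR adjusted p = 0.000862, 0.000299 and 0.00864). XBP1 fell by 0.34 ± 0.08 (0.00834 by the same test). JCHAIN rose by 0.36 ± 0.11 and PRDM1 by 0.32 ± 0.09 (edgeR adjusted p = 0.0217 and 0.0152), calls that were lost on both TPM scales (0.32 and 0.29). CD38, TNFRSF17 and IRF4 were not called. The MZB1 call was lost with ethanol replicate 1 (-0.77) or fluvastatin replicate 2 (-0.72) of H929 left out. In KMS11, XBP1 also fell, by 0.4 ± 0.08 (edgeR adjusted p = 0.0349), and no other of the 9 was called there. Among other fits, this XBP1 call was lost on both TPM scales (-0.54) and with either KMS11 ethanol library left out (-0.47 and -0.39). The part of these markers in the values of the ligands and of CCR1 was not tested.

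The genes most like each member across the 8 libraries are given as a description, with Pearson correlations of log2 CPM over 8 libraries that fall into 4 groups. For CCL3 they were RAB30 (0.993), INHBE (0.986) and PCYOX1 (0.982), and for CCL4 they were INPP5F (0.995), TPM4 (0.992) and TUFT1 (0.986). CCL5 was most like CCDC92 (0.981), NFE2L1 (0.968) and SYNGR3 (0.962). CXCR4 was most like SNX22, TMEM131L and DYNLL2 (each 0.998), CCR1 like RBFA and MPDU1 (each 0.991), and CCR10 like CDK5RAP3 (0.992), RPL4 (0.991) and PRKAG3 (0.99). With so few groups, many of the roughly 11071 genes compared reach high values.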

How the data were processed

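Total RNA of H929 and KMS11 cells was depleted of ribosomal RNA, made into stranded libraries and sequenced as paired ends of 75 bases. Per the labels and the study's methods, the authors used STAR 2.5.2b for alignment to GRCh38 and RSEM 1.3.0 with a GENCODE annotation. They deposited expected counts, in which fragments that fit several genes are divided between them, and TPM, which the authors' RSEM run scaled by effective length over all genes. Replicates were not pooled, and FPKM values were not used here.

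Identifiers were matched to GENCODE release 44, which holds 57392 of 58219 genes, of which 19683 are protein-coding. The deposited expected counts were rounded. Protein-coding genes were kept by edgeR's filterByExpr (min.count 10, min.total.count 15), scaled by TMM and fitted by quasi-likelihood with edgeR 4.0.16 in R 4.3.3. Adjustment was by Benjamini-Hochberg over 13129 genes, with 0.05 as the threshold. The line was a term in the fit across both lines, and 4 group means gave the other comparisons. Each SE was obtained from the log2 fold change and its F statistic. The p-values measure the spread between 2 biological replicates per group, which exceeded counting error in every group. Scripts were tested on simulated data. Alternatives used DESeq2 1.42.0, limma 3.58.1 on log2(TPM + 1) and log2(TPM + 0.1), other scalings and filters, all annotated genes, summed copies, a GC offset, no line term, a replicate block and each library left out.

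The members and the lists were chosen with earlier results of these data known. Genes named are the members, the copies of CCL3 and CCL4, other family genes past the threshold or at 1 TPM or more in a group, up to 5 genes with the largest change past the threshold per list and line, the 3 genes most like each member (1 of those for CCR1 is not reported here), FGFR3 and the cell type markers. Others are said to have been named after their values were seen. Promoters were read from a RefSeq table, which was matched by symbol.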

Additional observations from a re-analysis of the deposited data

Results flagged for a closer look

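The responses of H929 and KMS11 differed, by edgeR's test of the difference itself, for 15 of the members, family genes, named pathway genes, NF-κB subunits and cell type markers. For the members the difference is a description. It was 1.95 on the log2 scale for CCL3 (KMS11 minus H929), which was higher after fluvastatin in both lines, and 1.1 for CCR1, which was lower in H929 and near 0 in KMS11.

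Among the receptor signalling genes the difference was 1.28 for ARRB2 (edgeR adjusted p = 0.00448), -1.33 for JAK2 (0.000911), -0.87 for RHOA (0.00429) and -0.89 for VAV1 (0.0103). RHOA rose in both lines, its KMS11 call being lost under median-of-ratios scaling (0.48), with all annotated genes (0.5), on both TPM scales (0.37) and with KMS11 ethanol replicate 1 (0.47), ethanol replicate 2 (0.51) or fluvastatin replicate 1 (0.54) left out, and ARRB2, JAK2 and VAV1 passed only in H929 of the 2 lines. Among the regulators it was -1.08 for KLF6 (edgeR adjusted p = 0.00219), which rose in both lines, and -1.58 for ZFP36L1 (0.0291). The ZFP36L1 difference was no longer called without H929 ethanol replicate 2 (-1.06), H929 fluvastatin replicate 1 (-1.45), KMS11 ethanol replicate 1 (-1.45) or KMS11 ethanol replicate 2 (-1.7).

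Among the NF-κB subunits the difference was 0.6 for REL (edgeR adjusted p = 0.0166) and -1.03 for RELB (0.0282). The REL call was lost with H929 ethanol replicate 2 (0.59), H929 fluvastatin replicate 2 (0.6) or KMS11 ethanol replicate 2 (0.51) left out, and the RELB call with H929 ethanol replicate 2 (-0.78), H929 fluvastatin replicate 1 (-0.85), KMS11 ethanol replicate 1 (-0.97) or KMS11 ethanol replicate 2 (-1.08) left out. Among the markers it was -1.69 for the T cell gene CD3E (edgeR adjusted p = 0.014), lost without KMS11 ethanol replicate 2 (-1.6). Of the plasma cell genes, SDC1 differed by 1.27 (edgeR adjusted p = 0.00619), SLAMF7 by 0.87 (0.00956), JCHAIN by -0.64 (0.0138) and PRDM1 by -0.46 (0.0251). The SLAMF7 call was lost without KMS11 ethanol replicate 1 (0.76), the JCHAIN call without H929 ethanol replicate 2 (-0.57) or either KMS11 ethanol library (-0.67 and -0.6), and the PRDM1 call in each fit with a library left out except KMS11 fluvastatin replicate 2 (-0.51 to -0.4).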

How the results depend on the processing

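Of 304 counts of called genes under alternative settings, 250 lay within 1.5 times the value given and 54 did not, and no called member changed direction in 570 recomputed values. With no cell line term the count across both lines was 0 for the members and 0 for the other family genes. Over all 13129 genes that setting called 4 higher and 0 lower. Within KMS11 the member count of 2 was 1 with DESeq2 and 1 with limma on log2(TPM + 1), where CCL4 was lost, and 1 to 2 with a library left out. The member count for the difference was also 1 to 2 with a library left out. For the other family genes, a minimum count of 50 gave 1 across both lines, 2 in H929, 1 in KMS11 and 3 between ethanol groups, summing the copies gave 1, 2 and 1, DESeq2 gave 1 in H929, and no filter gave 10 between ethanol groups. Leaving out a library gave 1 to 3 across both lines, 1 to 4 in H929, 1 to 4 in KMS11 and 0 to 1 for the difference. The difference count was 1 with DESeq2, no filter or the GC trend removed and 2 with either TPM scale. For receptor signalling in KMS11 the count of 3 was 6 with DESeq2, 8 with no filter, 9 with the GC trend removed, 1 with either TPM scale and 0 to 11 with a library left out, and for the difference 22 with the GC trend removed and 6 to 19. For the regulators it was 7 with either TPM scale and 6 to 15 in KMS11, and 16 with the GC trend removed and 3 to 15 for the difference. With the GC trend removed the CCR10 difference between the lines was -1.27 and called. With limma on log2(TPM + 1) the difference between the responses of CCL4 was -0.8 (called), opposite in sign to the 2.12 (not called) of the main fit. On that scale its line difference in ethanol was -0.38 (not called). CCL4 was at under 1 TPM in KMS11, and that scale understates fold changes of low genes. Counts over all genes also varied between these settings and with a library left out. The causes of these changes were not tested.

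Over all genes, the KMS11 counts of 339 higher and 70 lower were 657 and 269 with DESeq2, 895 and 203 with no filter and 893 and 624 with the GC trend removed. They were highest with KMS11 fluvastatin replicate 2 left out, and lower than the values given above with KMS11 fluvastatin replicate 1 left out. The log2 ratio of a group's 2 libraries, over genes at 5 or more mean log2 CPM, had an SD of 0.263 in KMS11 fluvastatin. In the other groups this SD was 0.141 to 0.201. The part of this spread in the KMS11 shares of 2.58% and 0.533% given above was not tested. With limma on log2(TPM + 1) the counts across both lines were 323 higher and 775 lower, against 854 and 516, and between ethanol groups 6644 and 2477, against 4680 and 4774, where the median of all genes was 0.31. Of 1160 recomputed values of 33 other genes, 1047 kept their call, 113 lost it and 0 reversed.

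Replicate numbers were checked for pairing. Deviations of same-numbered libraries correlated at 0.702 in H929 and -0.0193 in KMS11 over 5872 genes. Same-numbered libraries thus shared deviations in H929 and not in KMS11. The comparisons given above had no term for the replicate number unless stated. A replicate block gave 143 higher and 15 lower genes across both lines and 1161 and 476 in KMS11. In H929 it gave 3382 higher and 3044 lower, against 2982 and 2529 without it. Under the block CCL5 lost its call across both lines (1.09) and gained it in KMS11 (0.81), the other family genes counted 1 across both lines and 1 for the difference, and receptor signalling in KMS11 counted 10. The block could not be fitted between ethanol groups, which share no line. Depth limits CXCL8, CCR2 and, in KMS11 ethanol, CCL4.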
